A study of Xenopus laevis with 6 samples.

Results

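The genes described here encode the machinery that docks, primes and fuses synaptic vesicles, together with the related proteins that fuse other membranes. They were taken by name from the annotation deposited with the study (build 9.1), as the synaptotagmins, syntaxins, VAMPs, the SNAP-25 family and SNAP91, synapsins, SV2 proteins, complexins, synaptophysin and synaptogyrins, syntaxin-binding proteins, UNC13 proteins, RIM, bassoon, piccolo, ERC, NSF and its adaptors. Of 45099 annotated genes, 108 were members, 59 on the long (L) and 49 on the short (S) subgenome of the allotetraploid frog Xenopus laevis, under 62 distinct symbols. The naming rule used no measured value. RNA came from the optic tectum, the midbrain centre that receives retinal input, of stage 46 tadpoles. The group called NPC was enriched for neural progenitors and came from dark-exposed animals, and the group called IN was enriched for immature neurons and came from animals exposed to visual stimulation, with 3 libraries each. Cell population and visual condition therefore cannot be told apart in any comparison below. The labels used here do not state how the populations were enriched, what genotype the animals had or whether tissue was pooled.

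Neurotransmitter is released when a vesicle SNARE protein of the synaptobrevin (VAMP) family zips together with syntaxin and SNAP-25 on the plasma membrane. Munc13 (unc13) helps to prepare this complex, complexin holds and assists it, synaptotagmin triggers fusion when calcium enters, and NSF with its SNAP adaptors takes the spent complex apart. In growing neurons much of the same machinery adds membrane to axons before mature synapses form, and its non-neuronal relatives serve the Golgi, endosomes and secretion in other cells.

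Levels are given as CPM, reads relative to library size after TMM scaling, from the deposited counts of STAR alignments over mRNA. The annotated mRNA lines run across introns, so these levels may include reads from introns, and coding reads are set beside the members whose groups did not overlap. The libraries held 8422751 to 9914191 counted reads. As a check of the tissue, all 20 annotated copies of the neuron marker list passed the filter on low counts and summed to 5175 to 11410 CPM, and all 20 of the progenitor and radial glia list to 1587 to 4299 CPM. Neither sum separated the groups (neuron markers 8850 ± 3065 CPM in NPC against 6900 ± 1500 in IN, progenitor markers 2733 ± 1015 and 3097 ± 1129, SD, n = 3 each). Log2 fold changes (IN minus NPC) were below 0 for 13 of the 20 neuron copies (median -0.31). They were above 0 for 14 of the 20 progenitor copies (median 0.19). Both directions are opposite to the enrichment that the groups are named for, so these lists do not show that enrichment. Both libraries numbered 1 had the lowest neuron marker sums of their group (5455 and 5175 CPM). Retina and lens markers summed to 0.625 to 38.0 CPM, with 4 of 14 copies at 0 reads in all libraries. Of the 4 tested copies of that list, 2 had fold changes above 0 and 2 below. The copy of lowest p, pde6h.L, of cone photoreceptors, held 0 reads throughout NPC and 29, 43 and 158 in IN (unadjusted p 0.00585, adjusted p 1, edgeR). Endothelial markers summed to 94.4 ± 41.8 CPM in NPC against 34.5 ± 21.9 in IN, microglia and leukocyte markers to 18.0 ± 8.19 against 53.6 ± 40.03, and erythroid markers to 469 ± 452 against 331 ± 264, each with overlap. Erythroid sums ran from 26.7 to 935 CPM and were lowest in both libraries numbered 3, and 5 of 13 erythroid copies were at 0 reads. Oligodendrocyte markers summed to 96.2 to 150 CPM and skeletal muscle markers to 3.80 to 22.4 CPM. Neuroendocrine markers, whose cells also use regulated exocytosis, summed to 436 to 1215 CPM, and all 10 copies passed the filter. The part of any of these cell types in the values below was not tested, and in bulk tissue fewer cells of a type and less RNA per cell cannot be told apart.

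Each role of the vesicle release machinery had reads in every library, and no member was called different between NPC and IN. Because vamp1, vamp2, syt1, syn1 and rims1 are not analysed here under those names, the presence of the whole machinery was not measured. The 108 members together took 0.542% to 0.704% of scaled reads. Their sum was 6647, 6569 and 7037 CPM in NPC against 6526, 5416 and 6232 CPM in IN, that is 6751 ± 251 and 6058 ± 575 CPM (SD, n = 3 each), an IN to NPC ratio of 0.897. The lowest NPC library lay only just above the highest IN library, and with reads counted over coding sequence alone the sums overlapped. The 10 most abundant copies held 39.3% of the mean sum.

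Of the 108 members, 86 passed the filter. None of the 86 passed edgeR's quasi-likelihood test after Benjamini-Hochberg adjustment over all 19158 genes tested, of which it called 0%. DESeq2 called 0 members and 0.459% of all genes, with 3 members at an unadjusted p under 0.05, and limma-voom called 0 members, with 2 at that level. The shares of all genes at an unadjusted p under 0.05 are not given here for either tool, so those member counts are not compared with a background. At an unadjusted p under 0.05 in edgeR there were 2 members, 1 higher in IN and 1 higher in NPC, against 3.43% of all genes (1.51% and 1.93% by direction). The groups did not overlap for 5 members higher in IN and 4 higher in NPC, together 10.5% of the tested members, against 8.76% of all genes (4.7% and 4.06% by direction). Fold changes were below 0 for 47 members (54.7%, against 51% of all genes) and above 0 for 39, with a median of -0.12 on the log2 scale (IN minus NPC) against -0.03 over all genes. These shares lie near the background. The members were measured somewhat more tightly than most genes, with a median standard error of 1.04 against 1.41, but the 95% intervals still reached a median of 2.16 log2 units to each side. The interval of 0 members lay wholly within 1 log2 unit of no difference, so for every single copy a difference of that size in at least 1 direction lay within the error.

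**Figure D1:**
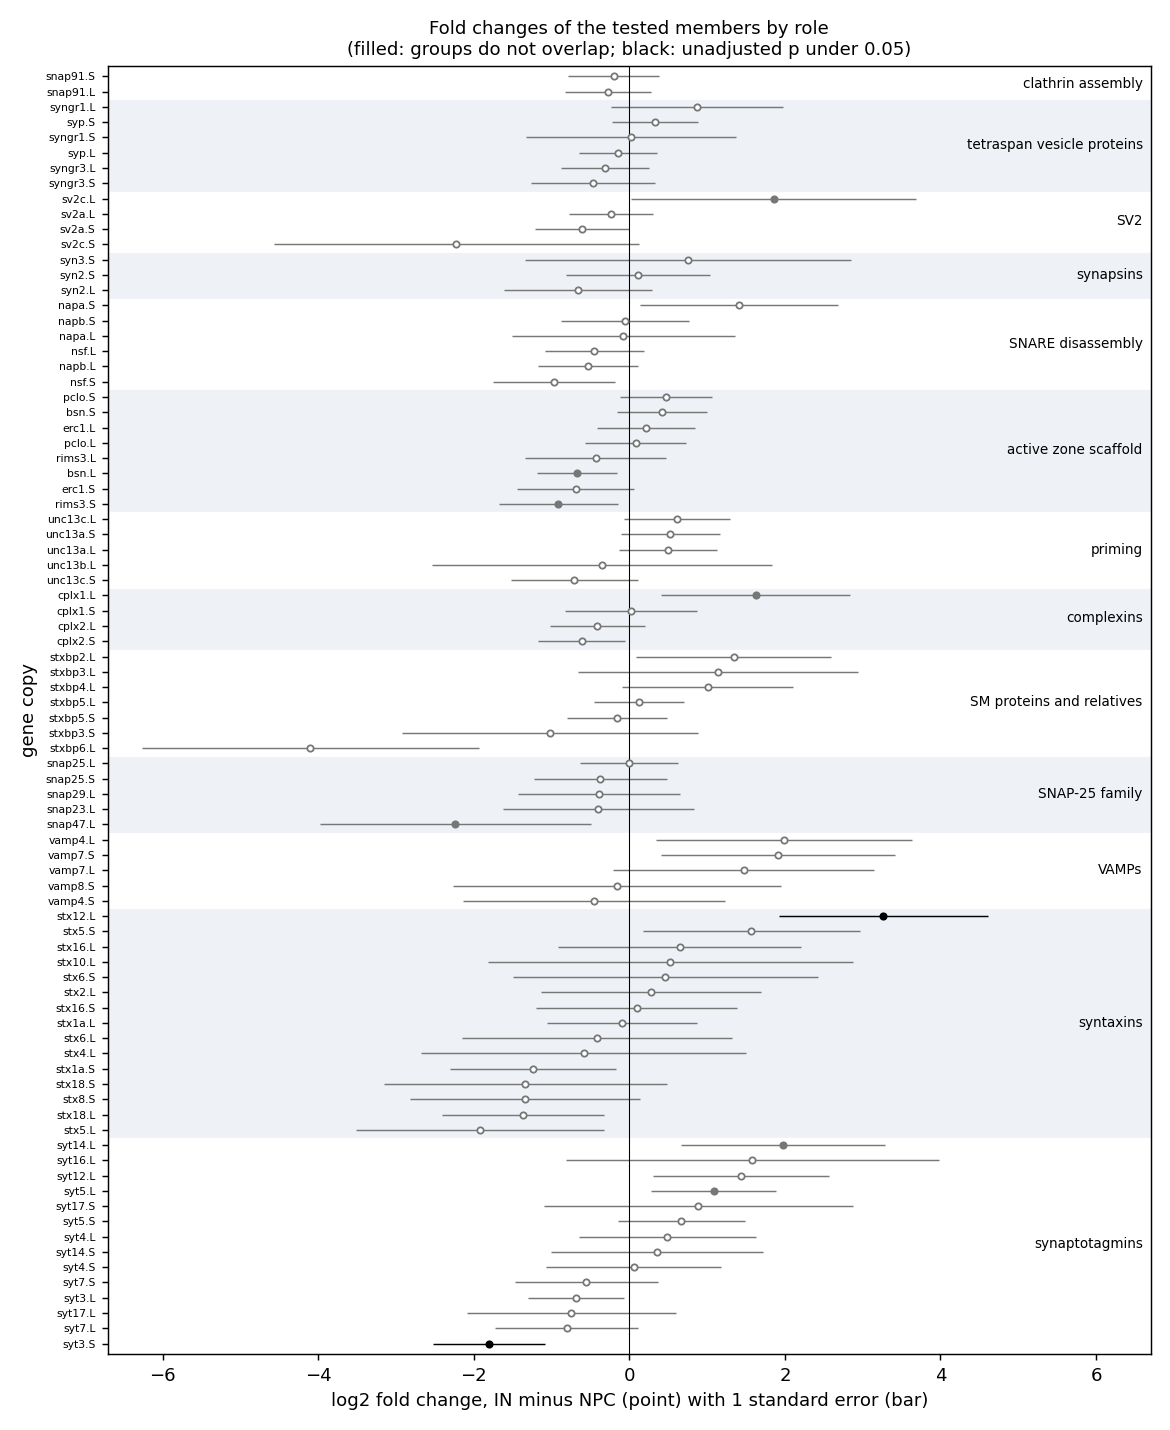
Each point is 1 of 84 of the 86 tested gene copies, placed by its log2 fold change (IN minus NPC, x axis) with a bar of 1 standard error, and grouped by role. Filled points have groups that do not overlap, and black marks the 2 copies at an unadjusted p under 0.05, stx12.L at 3.26 and syt3.S at -1.80; points lie on both sides of 0 in most roles.

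The neuronal SNARE genes of the plasma membrane overlapped between groups. snap25.L (5L, 17363 to 83413, minus strand), the main membrane partner of syntaxin, was at 83.7, 133 and 97.7 CPM in NPC against 101, 139 and 73.1 CPM in IN. Its libraries interleaved completely, with a log2 fold change of -0.01 (95% interval -1.32 to 1.31). snap25.S was at 80.3, 60.0 and 33.3 CPM in NPC against 64.7, 43.8 and 25.5 in IN, so within each number the IN library was the lower, by 0.31, 0.44 and 0.37 on the log2(CPM + 1) scale. The IN library was lower within all 3 numbers for 14 tested members (16.3%, against 11.5% of all genes) and higher for 11 (12.8%, against 13.2%), and the numbers were not taken as pairs. stx1a.L, a copy of the neuronal syntaxin, was at 54.2, 13.4 and 59.0 CPM in NPC against 65.0, 29.7 and 24.1 in IN, and its second copy stx1a.S at 80.7, 28.1 and 24.9 CPM in NPC against 13.7, 13.6 and 29.5 in IN. Both copies overlapped between groups, and NPC library 1 held 42.4% of the scaled reads of stx1a.S.

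Of 22 syntaxin copies, 15 passed the filter, with fold changes of 7 above 0 and 8 below. stx12.L (2L, 81251303 to 81263321, minus strand), an endosomal syntaxin, was at 3.28, 1.50 and 8.48 CPM in NPC against 76.1, 32.7 and 18.8 CPM in IN. Every IN library lay above every NPC library, though IN library 1 alone held 54.0% of its scaled reads. Its log2 fold change was 3.26 (unadjusted p 0.0243 with an SE of 1.34, adjusted p 1 by edgeR), and the exact permutation p was 0.1, the smallest that 3 against 3 allows. Leaving out IN library 1 gave 2.54 (unadjusted p 0.172), and leaving out NPC library 1 gave 3.08 (unadjusted p 0.0573). Its coding reads did not overlap either, at 26, 11 and 67 for NPC against 500, 193 and 179 for IN. In the fits of either coding table, however, stx12.L was not at an unadjusted p under 0.05 (edgeR). stx5 encodes a syntaxin of the Golgi, and its L copy held 22, 77 and 540 reads (NPC) against 26, 174 and 10 (IN). The S copy held 244, 1 and 86 reads against 655, 272 and 165.

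The SNAP-25 family, snap25 included, had fold changes below 0 in all 5 tested copies, with a median of -0.39, and 0 of them passed the test. snap47.L (6L, 4957745 to 4985642, plus strand), a SNAP-25 relative that lacks its membrane anchor, was at 17.1, 9.75 and 15.3 CPM in NPC against 2.47, 3.86 and 2.57 CPM in IN. The groups did not overlap. The log2 fold change was -2.24 (unadjusted p 0.214 with an SE of 1.74, adjusted p 1, edgeR). A gene without a symbol lies across snap47.L on the opposite strand, and the coding reads of snap47.L, 48, 0 and 59 in NPC, against 1, 38 and 18 in IN, overlapped.

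The VAMP copies in the annotation were all of the kinds that serve endosomes, lysosomes and other cells, while vamp1 and vamp2, the synaptobrevins of synaptic vesicles, are not analysed here (nor are syt1, syn1 and rims1 under those names). Of 8 copies 5 passed the filter, with fold changes of 3 above 0 and 2 below. vamp7.S, a lysosomal VAMP that also serves neurite growth, was at 5.19, 17.0 and 0.253 CPM in NPC against 24.2, 45.3 and 14.7 in IN. Of its 1022 mRNA reads 2.45% were coding, at 0 in every NPC library and 7, 18 and 0 in IN. vamp4.L, of the trans-Golgi network, was at 6.46, 5.50 and 1.52 CPM in NPC against 33.3, 14.4 and 5.97 in IN. For both copies the groups overlapped by 1 library of each, and the IN library was the higher within every number. Their log2 fold changes were 1.91 (SE 1.51) and 1.99 (SE 1.64), and neither had an unadjusted p under 0.05 (0.22 and 0.24, edgeR). Summed VAMP levels were 37.2 ± 20.4 CPM in NPC against 77.8 ± 45.1 in IN, with overlap, the highest ratio of any role (2.09).

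Synaptotagmins, the calcium sensors and their relatives, had members with fold changes on both sides of 0. Of 18 copies 14 passed the filter, with fold changes of 9 above 0 and 5 below, and the sum was 719 ± 180 CPM in NPC against 613 ± 196 in IN. syt3.S (7S, 76760749 to 76906069, minus strand), a high-affinity sensor of the plasma membrane, was at 118, 284 and 73.0 CPM in NPC against 62.8, 24.7 and 48.5 in IN. All NPC libraries lay above all IN libraries, most of all NPC library 2. The log2 fold change was -1.80 (unadjusted p 0.0202 with an SE of 0.72, adjusted p 1, edgeR; exact permutation p 0.1). Without NPC library 2 it was -1.07 (unadjusted p 0.21), and without IN library 2 it was -1.51 (unadjusted p 0.0822). Another annotated gene lies across syt3.S on the same strand. The coding reads of syt3.S were fewer and overlapped, at 313, 88 and 25 for NPC against 22, 90 and 25 for IN. The other copy, syt3.L, also had its 3 within-number differences below 0, at 143 ± 51.4 CPM in NPC against 88.7 ± 14.7 in IN.

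In the other direction, syt5.L, a sensor found on secretory vesicles, was at 42.4, 27.9 and 37.4 CPM in NPC against 74.6, 81.4 and 72.7 CPM in IN. The groups did not overlap on this scale, but its coding reads did, at 81, 125 and 186 for NPC against 26, 612 and 205 for IN. The log2 fold change was 1.09 with an SE of 0.80 (unadjusted p 0.192, adjusted p 1, edgeR). syt14.L, a relative that does not bind calcium, was at 24.8, 2.0 and 2.28 CPM in NPC against 30.6, 48.2 and 35.6 in IN, with a log2 fold change of 1.97 (SE 1.31). With 1 library left out it lay between 1.50 and 4.13, the latter without NPC library 1, and its coding reads overlapped, at 32, 0 and 15 for NPC against 93, 0 and 114 for IN. Another annotated gene lies across syt14.L on the same strand, and 18.2% of the mRNA reads of syt14.L were coding. syt5.L and syt14.L were named after their values were seen, as was rims3.S below, because their groups do not overlap. syt7.L, a slow, high-affinity calcium sensor, varied by replicate number: 318, 48.8 and 16.3 CPM in NPC against 120, 87.1 and 12 in IN. It was highest in library 1 and lowest in library 3 of both groups. The order of the 3 numbers was the same in both groups for 17 tested members (19.8%, against 20.7% of all genes).

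The tested syntaxin-binding and priming genes overlapped between groups. stxbp6.L (amisyn), a soluble syntaxin partner, was at 6.35, 0 and 72.6 CPM in NPC against 0, 4.26 and 0.309 in IN. NPC library 3 held 86.9% of its scaled reads, and leaving that library out moved the log2 fold change from -4.10 to -1.05. unc13a, which encodes Munc13-1, was at 117, 150 and 81.5 CPM (L) and 106, 84.7 and 82.4 (S) in NPC, and 298, 75.1 and 120 (L) and 207, 102 and 85.7 (S) in IN. IN library 1 was high for both copies, and their log2 fold changes were alike at 0.50 (SE 0.63) and 0.53 (SE 0.63). unc13c.L was at 86.1 ± 48.8 and 132 ± 72.4 CPM, with overlap.

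Complexin 1 had 1 copy whose groups did not overlap. cplx1.L (1L, 107967423 to 108034354, plus strand) was at 9.64, 10.2 and 13.4 CPM in NPC against 33.8, 47.5 and 21.4 in IN, with no overlap (log2 fold change 1.62, SE 1.22, unadjusted p 0.197, adjusted p 1, edgeR). That direction turned when only coding reads were counted, which numbered 12, 38 and 29 for NPC against 4, 6 and 13 for IN (log2 fold change -2.02 with STAR and -1.88 with TopHat2, adjusted p 1 and 0.999 by edgeR). cplx1.S, at 108, 52.7 and 18.2 CPM in NPC against 77.3, 70.7 and 33.8 in IN, overlapped. cplx2 was the more abundant complexin, at 162 ± 93.2 and 122 ± 44.5 CPM for the L copy and 305 ± 189 and 200 ± 55.7 CPM for the S copy. cplx3 and cplx4, the complexins of ribbon synapses in the retina, had few reads: cplx3.L had 1 read in all libraries together, cplx4.L 26 reads in NPC library 3 and 0 elsewhere, and cplx4.S 14, 0 and 1 reads against 0, 0 and 1.

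The scaffolds of the active zone, where vesicles dock, made up the role with the highest mean sum on the CPM scale. Its 9 copies, of bsn, pclo, rims3, erc1 and erc2, summed to 1155 ± 350 CPM in NPC against 1069 ± 268 in IN. CPM is not divided by length, and the transcripts of the giant scaffolds bsn and pclo are long. bsn.L (bassoon; 4L, 118573697 to 118726183, minus strand) was at 267, 246 and 417 CPM in NPC against 246, 197 and 141 in IN, without overlap, though the lowest NPC and the highest IN library were nearly level. Its coding reads overlapped, at 1452, 1657 and 3096 for NPC against 1752, 1234 and 1226 for IN. The log2 fold change of bsn.L was -0.67 (unadjusted p 0.209 with an SE of 0.52, adjusted p 1, edgeR). bsn.S had a fold change above 0, at 166, 92.1 and 289 CPM against 343, 136 and 252, and the copies summed gave -0.16. rims3.S, a short RIM relative, was at 61.4, 86.6 and 107 CPM in NPC against 56.7, 33.1 and 45.5 in IN, without overlap; its log2 fold change of -0.91 turned to 0.20 with STAR coding reads and 0.28 with TopHat2 coding reads. Its STAR coding reads overlapped, at 139, 18 and 102 for NPC against 221, 2 and 104 for IN. piccolo overlapped for both copies, pclo.L at 173 ± 105 and 183 ± 144 CPM and pclo.S at 118 ± 32.8 and 164 ± 63.7 CPM.

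**Figure D2:**
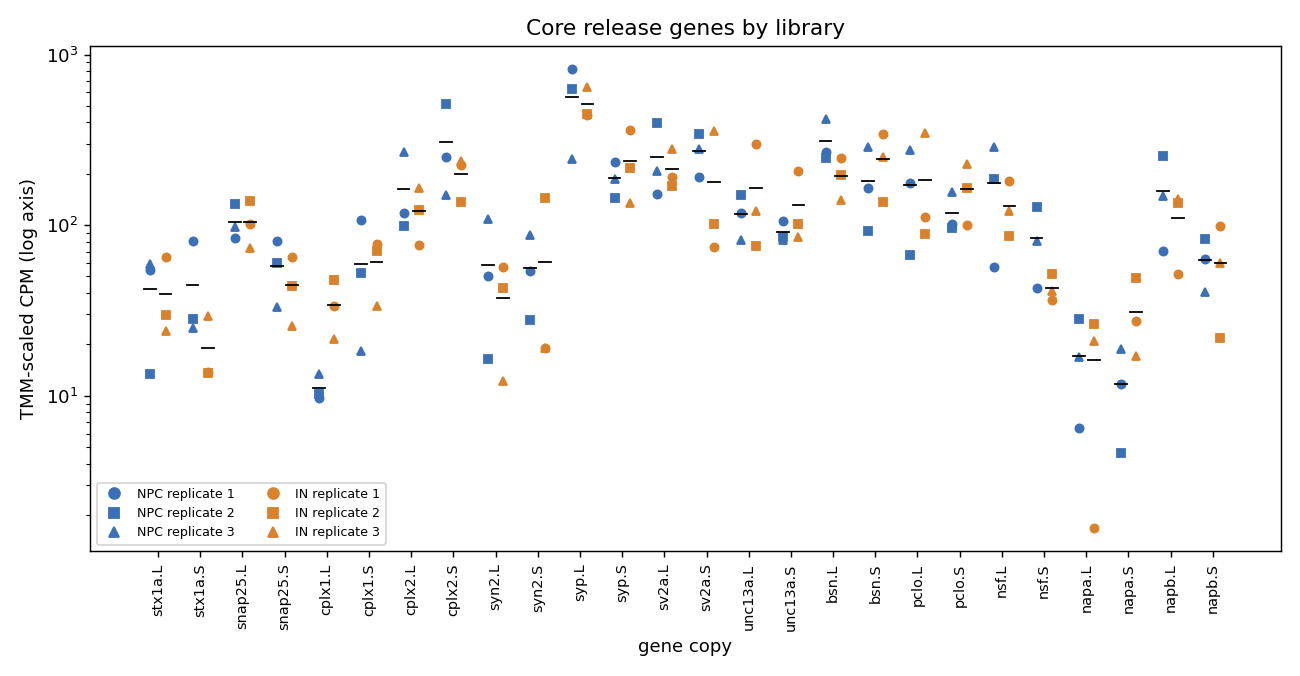
TMM-scaled CPM (log axis) of annotated copies of core release genes, with 1 point per library, colour for the group, shape for the replicate number and a line at each group mean. The libraries of NPC and IN interleave for nearly every copy, and bsn.L and cplx1.L are the copies shown whose groups do not overlap.

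Among proteins of the vesicle itself, synaptophysin, a tetraspan vesicle protein, was the most abundant. syp.L (Scaffold103, 223400 to 227722, minus strand) was at 824, 632 and 243 CPM in NPC against 443, 447 and 649 in IN, and syp.S at 236, 144 and 187 CPM against 359, 217 and 135. Both overlapped, and their log2 fold changes were -0.14 (95% interval -1.18 to 0.90) and 0.33 (SE 0.55). The synaptic vesicle protein sv2a was at 251 ± 127 and 213 ± 57.9 CPM (L) and 271 ± 75.9 and 178 ± 156 CPM (S). The less abundant sv2c.L was at 4.02, 0.125 and 6.58 CPM in NPC against 9.78, 8.52 and 20.6 in IN, without overlap, as were its coding reads of 0, 0 and 52 against 86, 84 and 186 (log2 fold change 1.85, SE 1.84, unadjusted p 0.324, adjusted p 1, edgeR). The other copy, sv2c.S, had a fold change below 0 (log2 -2.22, SE 2.35), with overlap. It held 143, 0 and 2 reads in NPC against 0, 15 and 17 in IN, and NPC library 1 held 81.1% of its scaled reads. Synapsin, which tethers vesicles to actin, was represented by syn2 and syn3. syn2.L was at 50.4, 16.5 and 109 CPM in NPC against 56.7, 42.8 and 12.2 in IN, and syn2.S at 53.5, 27.8 and 87.4 against 19.2, 144 and 19.2. No order by group was visible in either copy, and of the 2585 mRNA reads of syn2.L, 0 fell in its annotated coding sequence. syngr1.L, a synaptogyrin, was at 44.0, 17.0 and 8.98 CPM against 22.0, 92.3 and 13.9. Both copies of snap91, which encodes the clathrin assembly protein AP180, overlapped, with snap91.L at 188 ± 61.5 and 156 ± 32.8 CPM.

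NSF, the ATPase that separates spent SNARE complexes, and its adaptors had fold changes below 0 in 5 of 6 copies, and 0 of 6 passed the test. nsf.S was at 42.9, 128 and 81.1 CPM in NPC against 36.3, 51.7 and 40.9 in IN, lower in IN within each number (log2 fold change -0.97, SE 0.79). nsf.L was at 177 ± 115 and 129 ± 48.0 CPM. The neuronal adaptor napb.L was at 71.0, 256 and 149 CPM against 52.0, 134 and 142, while napb.S, at 62.3 ± 21.4 and 59.8 ± 38.2 CPM, had a log2 fold change of -0.06. napa.S, of the ubiquitous adaptor, was the exception, at 11.7, 4.62 and 18.7 CPM in NPC against 27.5, 48.7 and 17.1 in IN, and napa.L was at 17.2 ± 10.8 and 16.3 ± 13.0 CPM. All of these overlapped between groups.

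**Figure D3:**
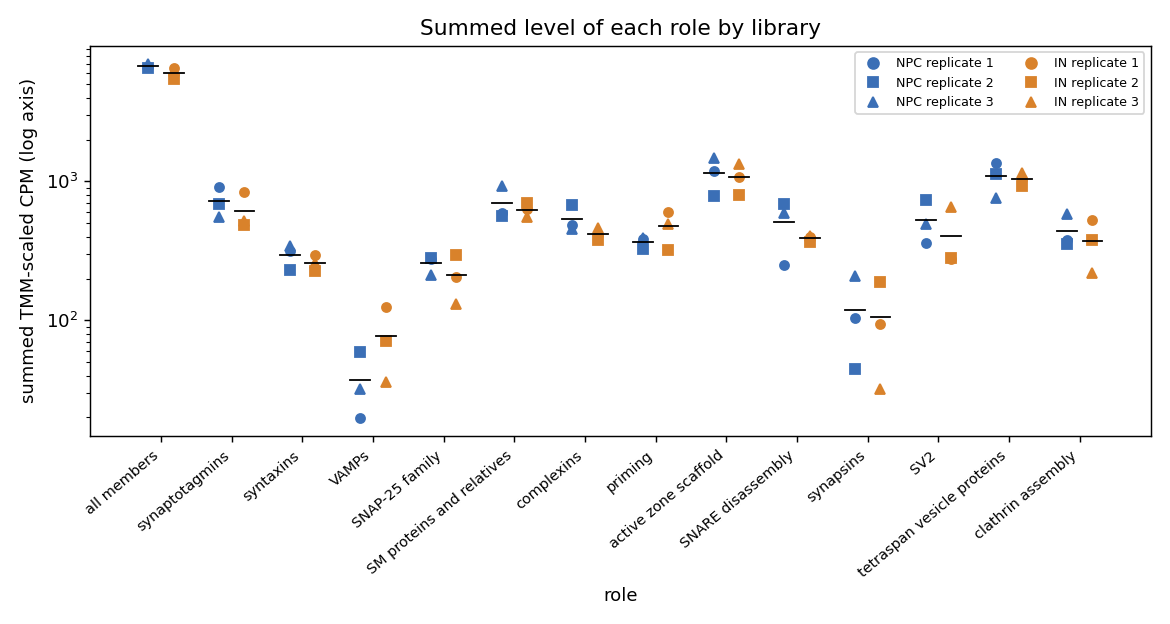
Summed TMM-scaled CPM (log axis) of all members and of each role, with 1 point per library, colour for the group, shape for the replicate number and a line at each group mean. The 2 groups overlap in each of the 13 roles, and the total lies between 5416 and 7037 CPM in all 6 libraries.

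The copies with the fewest reads included several that act mainly outside neurons. Of the 22 copies that failed the filter, 7 had no read in the mRNA table. Of these, stx11.L, syt8.L, vamp5.S and both copies of syngr4 also had 0 coding reads, while stx19.L had 33, 0 and 0 coding reads (NPC) against 0, 21 and 0 (IN) and stx19.S had 2, 1 and 1 against 0, 0 and 52. Both stx19 copies overlap arl13b on the opposite strand. unc13d.L, which primes granules in blood cells, held 1, 2 and 0 reads (NPC) against 7, 20 and 9 (IN), without overlap. Its coding reads overlapped, at 0 in every NPC library and 6, 8 and 0 in IN. Of the 3 tested copies of microglia and leukocyte markers, 2 had fold changes above 0 and 1 below. Above 0, coro1a.S held 2, 39 and 2 reads against 121, 104 and 306, without overlap, and c1qb.L 1, 3 and 27 against 262, 55 and 9. The copy below 0, ptprc.S, held 200, 23 and 132 reads against 49, 18 and 80, with overlap. The part of such cells in the unc13d.L reads was not tested. vamp8.L, of endosomes and exocrine granules, had 16, 0 and 0 reads against 1, 0 and 1, while vamp8.S, which passed the filter, had 21, 0 and 162 against 197, 2 and 7. stx11.S held 0 reads throughout NPC and 1, 0 and 1 in the IN libraries. The other failing copies, snap29.S, vamp5.L, erc2.L, cplx3.L, cplx4.L, cplx4.S, syt12.S, syt13.S, syt8.S, stx2.S, stx3.S and stx8.L, had at most 153 mRNA reads in all libraries together. With so few reads these copies give no comparison.

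The L and S copies shared the reads of a gene unevenly, and the split moved between libraries. Of 46 genes with both copies, 38 had at least 10 reads in every library. The L copy held more than 50% of the pair's mRNA reads in all 6 libraries for 8 of them (nsf, snap25, snap29, stx2, syngr3, syp, syt12 and syt17), and the S copy for 1 (cplx1). In STAR coding reads pooled over libraries, the S copy held more for nsf (3294 against 2428) and syngr3 (3756 against 1754). The L copy held more of them for snap25, snap29, stx2, syp, syt12 and syt17. Coding reads of cplx1 were 12, 38 and 29 (L) and 18, 29 and 15 (S) in NPC. In IN they were 4, 6 and 13 (L) and 0, 76 and 4 (S), so its larger share changed sides. For the other 29 genes the larger share of mRNA reads changed sides. stx5 ranged from 3.82% to 98.7% L and stx6 from 4.44% to 96.7%, whereas unc13a stayed between 42.5% and 64.0%. The L share did not overlap between groups for 2 genes, unc13c (mean 53.2% in NPC and 75.1% in IN) and syt14 (31.2% and 65.8%), a difference of shares that was not tested. That is 2 of 38 genes, where 8.8% of all 5844 such pairs in the annotation did not overlap. In STAR coding reads the L shares of both genes overlapped between groups. For unc13c these reads were 357, 166 and 784 (L) and 27, 307 and 566 (S) in NPC. In IN they were 458, 179 and 1935 (L) and 70, 68 and 558 (S). For syt14 they were 32, 0 and 15 (L) and 27, 0 and 57 (S) in NPC. In IN they were 93, 0 and 114 (L) and 176, 4 and 0 (S). Each syt14 copy is crossed by another annotated gene on the same strand. Where both copies were tested, their fold changes had the same sign in 22 of 35 genes. How reads matching both copies were counted is not known here, so the split is uncertain to that extent, and copies differ in annotated length.

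**Figure D4:**
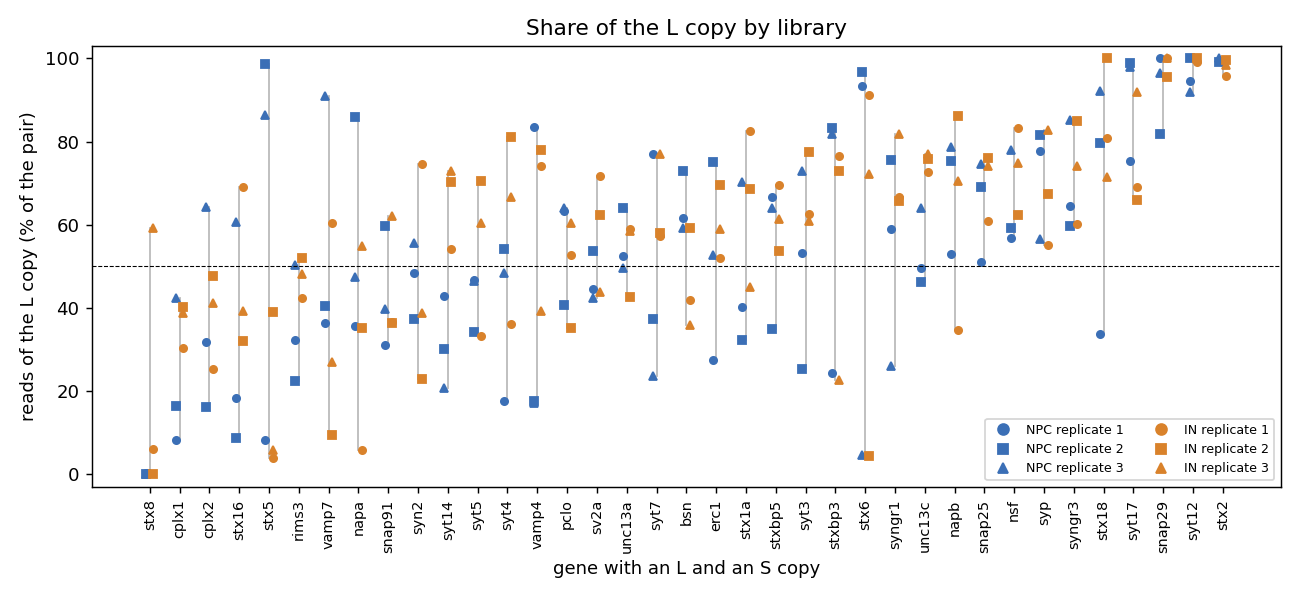
The mRNA reads of the L copy as a percentage of those of both copies (y axis) for 37 of the 38 genes with at least 10 reads in every library, ordered by their mean. Points are libraries (colour, group; shape, replicate number), the grey line spans their range and the dashed line is at 50%. Most genes cross 50%, and stx5 and stx6 span nearly the whole axis.

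Which part of a gene the reads came from differed greatly among members. The annotation holds coding and UTR lines but no exon lines, and its mRNA lines run across introns. For the 11 members with over 500 reads and no annotated UTR, coding reads came to between 7.86% and 98.4% of mRNA reads, with a median of 72.1%, so the rest were counted outside the annotated coding sequence. cplx1.L was the lowest and nsf.S the highest, and stx12.L had 70.4%. Among all members with over 500 reads the lowest were syn2.L with 0%, vamp7.S with 2.45% and syt7.L with 3.47%, where coding sequence makes up 18.2%, 10% and 60.5% of the annotated exons. stx18.L had 6.52%, with a coding part of 79.3%. Pooled over members without an annotated UTR the share was 74.4%, against 70.8% over all genes of that kind. By library, the members' coding share was 43.5%, 52.9% and 57.9% in NPC and 42.5%, 47.2% and 59.7% in IN, ordered by replicate number in both groups, as was that of all genes.

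**Figure D5:**
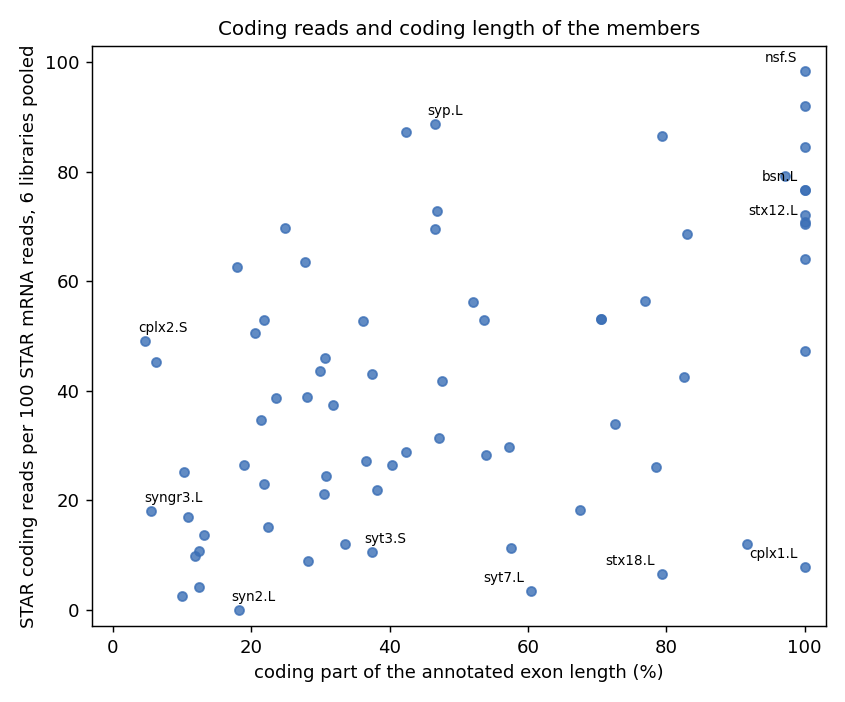
Each point is 1 of 71 members with over 500 reads, all libraries pooled. The x axis is the coding part of the annotated exon length in percent and the y axis the STAR coding reads per 100 STAR mRNA reads; nsf.S, at 98.4, and cplx1.L, at 7.86, have the same annotated coding part of 100%.

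For an order of levels between genes, coding reads were divided by coding length (CPM per kilobase of coding sequence, scaled within the coding table). syp.L led at 1266 ± 1017 in NPC, against 1058 ± 116 in IN. It was followed by cplx2.S (864 ± 544 and 324 ± 46.9), cplx2.L (294 ± 261 and 271 ± 59.9), syngr3.S (337 ± 179 and 213 ± 130) and syp.S (153 ± 135 and 305 ± 261). On the same scale napb.L was at 166 ± 104 and 126 ± 76.7 and snap25.L at 124 ± 42.3 and 112 ± 51.4. Apart from syp.L above cplx2.S in IN, neighbours among these copies lay within their spread. The long scaffold bsn.L, among the highest by CPM, was at 36.5 ± 11.1 and 22.7 ± 8.68 per kilobase.

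Other genes of the vesicle cycle, taken from lists, also had 0 members that passed the adjusted test. Of 51 tested copies of genes for vesicle endocytosis and recycling, 1 in each direction had an unadjusted p under 0.05 (edgeR). Over all genes that share was 1.51% higher in IN and 1.93% higher in NPC. The groups did not overlap for 4 of the 51 (7.84%, against 8.76% of all genes). clta.S, a clathrin light chain, was at 200 ± 46.4 CPM in NPC against 85.7 ± 16.3 in IN, without overlap (log2 fold change -1.22, SE 0.58, unadjusted p 0.0466, adjusted p 1, edgeR). itsn2.S, an endocytic scaffold, held 8, 2 and 16 reads (NPC) against 882, 86 and 2 (IN), with overlap. By level per kilobase of annotated exon, ap2m1.L, an adaptor subunit, led that list, with a level of 603 ± 342 CPM in NPC against 413 ± 32.6 CPM in IN. Fold changes were below 0 for 33 of these 51 copies (64.7%, against 51% of all genes, median -0.27). For other exocytosis regulators they were below 0 in 15 of 23 tested copies (65.2%, median -0.35). In that list rab3a.L, the vesicle GTPase, was at 141 ± 124 and 89.7 ± 15.6 CPM. The exocyst, which tethers vesicles at growing membranes, had 10 tested copies, 4 above 0 and 6 below (median -0.35), with exoc7.L at 61.9 ± 50.04 and 77.7 ± 18.2 CPM. Among 6 tested copies of vesicular transmitter transporters 5 were above 0 and 1 below (median 0.26). The copy below was slc17a7.S, a glutamate transporter, at 256, 1103 and 2498 reads (NPC) against 267, 462 and 492 (IN) (unadjusted p 0.0218, adjusted p 1, edgeR), while slc17a7.L, highest of its list per kilobase, was at 87.2 ± 75.5 and 102 ± 28.2 CPM.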

How the data were processed

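RNA was sequenced from 3 NPC and 3 IN libraries. The authors deposited whole-number read counts, not normalized, from STAR over mRNA, STAR over coding sequence and TopHat2 over coding sequence, per the sheet names. FastQC, Trimmomatic, HTSeq and DESeq2 appear without roles in the submitters' processing notes; strand and counting mode are not stated there. Columns D and L were read as dark (NPC) and light (IN), numbered as the titles. Coordinates are build 9.1, per the file headers.

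The mRNA counts were filtered with filterByExpr (19158 genes left), scaled by TMM and compared by the robust quasi-likelihood test of edgeR 4.0.16 (R 4.3.3, 2-sided, Benjamini-Hochberg over all genes, threshold 0.05). Standard errors are the fold change over the square root of F. Alternatives were DESeq2 1.42.0, voom of limma 3.58.1, RLE scaling, no filter, both coding tables, summed L and S copies, a replicate block and left-out libraries. The edgeR step was tested on simulated data.

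Members and lists were chosen with earlier results of these data known. Results of some members are not reported here, though all counts include them. Named copies were those of core release genes and, per role, the copy highest per kilobase, the copy of lowest p, and any at an unadjusted p under 0.05. Nothing in the labels ties libraries to separate animals, so p-values cover the spread between these samples only, which may be technical. Counting error was not corrected for PCR duplicates.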

Additional observations from a re-analysis of the deposited data

How the results depend on the processing

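The adjusted test called 0 members under every alternative run. Over all genes it called 16 with no filter and 88 with DESeq2, where members at an unadjusted p under 0.05 and higher in NPC numbered 3 and 2. With STAR or TopHat2 coding counts 0 members at that level were higher in IN. Members without overlap and higher in IN numbered 3 in each coding table and 2 with copies summed, and those higher in NPC 2 with TopHat2 coding counts and 2 with copies summed. For these member counts, and for those at an unadjusted p under 0.05 with a library left out, the shares of all genes are not given here. They are therefore not compared with a background. The members' median was 0.0219 with STAR coding counts. Leaving out 1 library at a time gave 0 to 2 called genes (2 without NPC library 3), 0 (without IN library 1) to 3 (without NPC library 2) members at that level higher in IN and 1 to 2 higher in NPC, 5 to 12 (most without NPC library 1, 13.8% against 12.1% of all genes) and 5 to 13 (most without IN library 3, 14.6% against 7.76%) without overlap, which fewer libraries make more frequent by construction, a median of -0.175 to 0.0416 and a log2 ratio of summed levels of -0.213 to -0.0818.

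Fold changes of single copies were followed across the alternatives only for some of the copies named above. Among those followed, signs turned as listed here, and the cause was not tested. Tested members outside that set may also turn sign and are not covered by the list. With STAR and TopHat2 coding counts they were 1.3 and 1.49 (napa.L), 0.463 and 0.489 (sv2a.L), -0.234 and -0.202 (pclo.L), 0.198 and 0.276 (rims3.S), -2.02 and -1.88 (cplx1.L) and -0.226 and -0.162 (syngr1.L), and with TopHat2 alone -0.169 (cplx1.S) and 0.053 (stx1a.L). Summing copies gave 0.726 (napa), -0.156 (bsn), -0.227 (syn2) and -0.00356 (syp). limma-voom gave -0.435 (syn2.S) and 0.0237 (stx1a.L). With 1 library left out, ranges that crossed 0 were -0.400 to 0.756 (cplx1.S), -0.690 to 0.172 (cplx2.L), -0.938 to 0.00275 (cplx2.S), -0.620 to 0.481 (napa.L), -0.903 to 0.00096 (napb.L), -0.616 to 0.346 (napb.S), -0.885 to 0.0916 (nsf.L), -0.781 to 0.601 (pclo.L), -0.265 to 0.211 (snap25.L), -0.646 to 0.235 (stx1a.L), -0.517 to 0.252 (sv2a.L), -1.09 to 0.159 (syn2.L), -1.55 to 0.584 (syn2.S), -0.364 to 1.70 (syngr1.L), -0.502 to 0.209 (syp.L), -0.101 to 0.616 (syp.S), -1.36 to 1.16 (syt7.L) and -0.255 to 0.850 (unc13a.L).

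The replicate numbers were not taken as pairs in the main fit. Deviations of same-numbered libraries correlated at 0.13, 0.0511 and 0.0893, and those of different numbers at -0.086 to -0.007, so each library correlated best with its own number. The deviations were taken from group means, so within a group they sum to 0 for each gene. Values above 0 for the same number therefore push the others below 0, and that contrast is partly fixed by construction. The unpaired standard errors may still include a part shared by number, which was not tested. The replicate block gave 0 called genes, 0 called members, a median of -0.0231 and 1 member at an unadjusted p under 0.05 in each direction, with syn2.S at -0.628 and stx1a.L at 0.0519.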

Other observations

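Several relatives of these genes carry annotation names outside the naming rule and were chosen after their annotation and values were seen. The gene annotated as syt1-like was at 336, 347 and 399 CPM in NPC against 372, 307 and 273 in IN for the L copy, and at 144, 203 and 180 against 138, 142 and 170 for the S copy. Both overlapped, with log2 fold changes of -0.18 (SE 0.47) and -0.23 (SE 0.54). stxbp5l.L, of a tomosyn that binds syntaxin, was at 134 ± 21.8 CPM (NPC) against 140 ± 12.3 CPM (IN), each the mean ± SD of 3 libraries. stxbp5l.S was at 131 ± 60.6 and 54.1 ± 28.8 CPM, with overlap (log2 fold change -1.28, SE 0.72). The RIM relative rims4-like.L was at 61.8 ± 3.36 and 61.5 ± 21.7 CPM.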
